A study of Homo sapiens with 4 samples.

Results

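Interferon-stimulated genes were followed across 4 Affymetrix U133 Plus 2.0 arrays. The list held 38 genes, and 37 of them had a probe set naming that gene alone, of 19775 such genes on the array. The level of a gene was taken from its brightest probe set, that with the highest mean signal over the 4 arrays, and 27 of the 37 reached a signal of 100 on at least 1 array. STAT2 had no probe set of its own in the annotation used and was not analysed here. The cells were T-47D, a luminal breast cancer line with estrogen and progesterone receptors, and MDA-MB-231, a triple negative one, each given 100 μM JPH203 for 24 h or Captisol at the same concentration as control. JPH203 blocks LAT1, a transporter of large neutral amino acids, and Captisol is a cyclodextrin vehicle. The labels name no interferon or other stimulus in any of the 4 groups. Each group was 1 array, so no value below has a replicate error or a p-value, and the probe set signals, in arbitrary units after each array was scaled on its own, are not compared between genes.

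Type I interferons bind a receptor of IFNAR1 and IFNAR2 and act through the kinases JAK1 and TYK2. A transcription factor complex with STAT2 and IRF9 then binds the interferon-stimulated response element, while the gamma-activated site serves mainly type II interferon. The genes they induce encode sensors and effectors against viruses, and many tumour cell lines express a part of them without added interferon.

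Sequence motifs were searched in the RefSeq promoter windows of GRCh38.p14, which run from 250 bases before to 50 bases after a gene start. These were the response element core, GAAA and again GAAA set apart by 2 bases of any kind, and the gamma-activated site TTCNNNGAA, each on both strands. Of the 38 listed genes, 30 had a window, and 20 of these (66.7%) held the response element core, against 4.38% of all 27305 genes with a window and 3.57% of all 35116 windows. The gamma-activated site was found in 10 of the 30 (33.3%), against 9.38% of all genes and 7.66% of all windows, and in 4 genes it overlapped a response element match. Genes known to answer interferon make up the list, so this describes the list and is no result of the arrays. The response element nearest to the start, lying before it, is printed for the genes with such a match that were called different between the control arrays, and for BST2, which lay near that threshold. Each line reads 5′ to 3′ on the strand of the gene, with the matched bases in capitals and up to 10 bases on either side.

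ISG15, chr1:1013374-1013409 (+): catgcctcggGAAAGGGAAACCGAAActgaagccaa
IFIT1, chr10:89392510-89392539 (+): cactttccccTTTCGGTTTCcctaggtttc
IFIT3, chr10:89332468-89332497 (+): gttccatcagTTTCACTTTCctttcccctt
IFIT5, chr10:89414539-89414567 (+): ttacgtttagTTTCGATTTCttaagtttc
IFITM3, chr11:320876-320905 (-): aaactgttgaGAAACCGAAActactgggga
IFI44, chr1:78649761-78649790 (+): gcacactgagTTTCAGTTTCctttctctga
IFIH1, chr2:162318686-162318715 (-): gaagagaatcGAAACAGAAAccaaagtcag
IFI27, chr14:94110631-94110660 (+): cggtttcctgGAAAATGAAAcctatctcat
HERC5, chr4:88457035-88457064 (+): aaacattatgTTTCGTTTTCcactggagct
LGALS3BP, chr17:78979962-78979991 (-): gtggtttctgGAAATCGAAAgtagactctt
PARP9, chr3:122564322-122564351 (-): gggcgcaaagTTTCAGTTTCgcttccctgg
MX1, chr21:41431844-41431873 (+): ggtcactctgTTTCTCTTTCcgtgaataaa
BST2, chr19:17405735-17405770 (-): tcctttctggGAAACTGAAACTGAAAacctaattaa

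In ISG15 and BST2, 2 overlapping matches formed 1 longer run, and in IFIT1, IFIT3, IFIT5, IFITM3, IFIH1, HERC5 and IFI27 1 or more further matches lay upstream. In IFIT5 a further match ran across the start. The windows of MX1 were those of 3 annotated starts, and the match printed belongs to 1 of them. No match of either motif was found in the windows of UBE2L6, SAMHD1, HERC6, STAT2 and XAF1. Those of OAS1, IRF1, IRF9, IFI35 and SP110 held a gamma-activated site but no response element core. Such an absence says only that these letters are not in those windows. Of the genes higher in the MDA-MB-231 control array, 10 of 13 with a window held the core, of those higher in the T-47D control array 2 of 4, and of the measured genes not called 4 of 6.

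**Figure D1:**
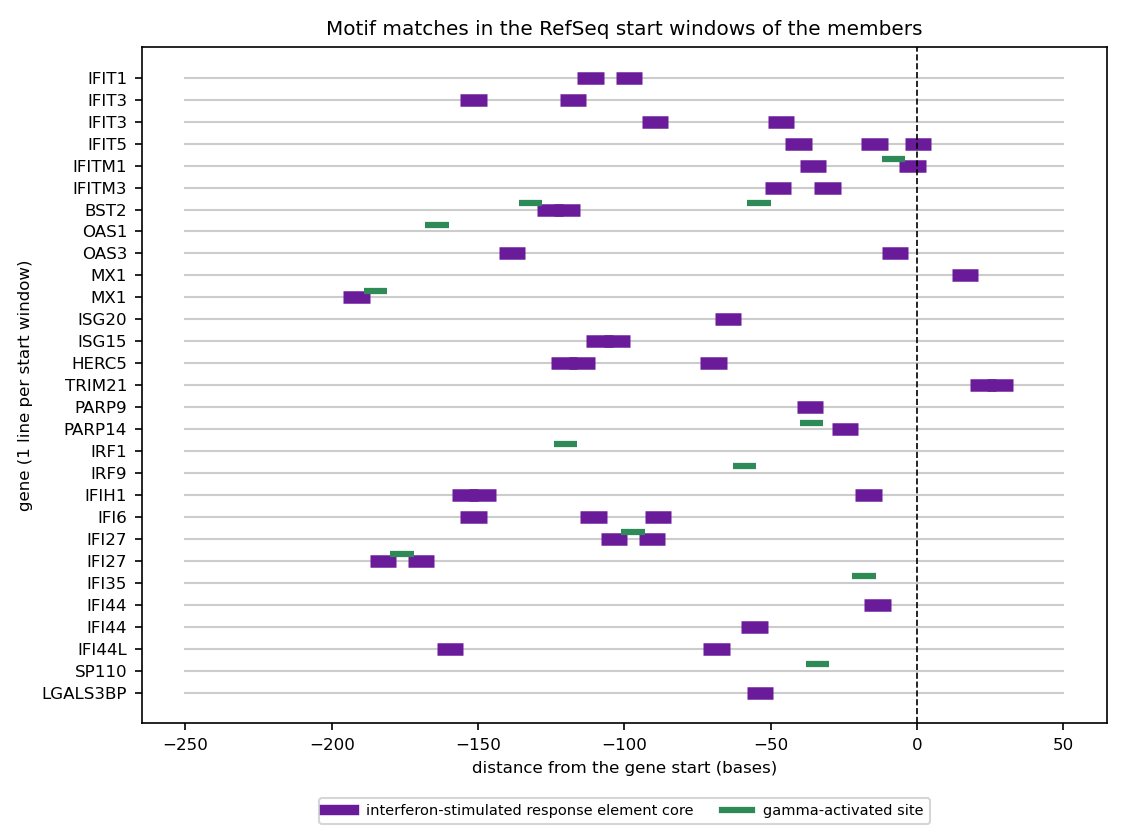
Positions of motif matches (x axis, bases from the gene start, dashed line) in the RefSeq start windows of the listed genes that held a match (y axis, 1 line per start window). Purple bars are response element cores and green bars gamma-activated sites; most purple bars lie within 250 bases before the start, and those of TRIM21 and of 1 MX1 window lie after it.

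The arrays were first checked against the labels and for technical differences. Luminal markers marked the T-47D control array, 11 of 11 being 2-fold or more above the other line, and 9 of 10 mesenchymal markers marked that of MDA-MB-231, SPARC being below 100 on all 4. The mean signal, without the lowest and highest 2% of values, was 100.0 on every array. The 3-prime over 5-prime signal ratio of ACTB, which is lower in intact RNA, was 1.45 and 1.44 on the control and JPH203 arrays of the MDA-MB-231 line, and 1.39 and 1.72 on those of the T-47D line. The same ratio of GAPDH was 0.987 and 1.01 in the MDA-MB-231 line, and 0.940 and 0.867 in the T-47D line. The geometric mean of 27 poly-A spike-in probe sets with JPH203 was 0.899 times the control in the MDA-MB-231 line and 1.41 times in the T-47D line. Between the control arrays it was 0.344 times in the MDA-MB-231 line that of the T-47D line.

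The first comparison was that of the control arrays, and asked which interferon-stimulated genes the lines expressed without JPH203. Of the 27 measured genes, 9 reached a signal of 100 on both control arrays, 12 on that of the MDA-MB-231 line alone, 4 on that of the T-47D line alone, and 2, OAS2 and ISG20, on a JPH203 array alone. A gene was called different where the control signals stood 2-fold or more apart and at least 1 of them was 100 or more. By this rule 15 of 25 genes were higher on the MDA-MB-231 array, where 23.5% of all 8294 genes were, and 4 on the T-47D array, where 24.3% of all genes were. The median log2 ratio of the 25 genes, MDA-MB-231 over T-47D, was 1.52, and that of all 8294 genes was 0.0011. A gene at 100 in 1 line alone passes this minimum only through the line where it is high. The counts with a signal of 100 on both arrays are therefore also given. Of the 9 genes that met that, 3 were higher in the MDA-MB-231 line (16.3% of all 5688 genes) and 2 in the T-47D line (16.1% of all genes), with a median log2 ratio of -0.11. Of the 15 genes, the other 12 had a T-47D control signal below 100, and the size of their ratio is not read. Scaling to the poly-A spike-ins gave 21 genes higher in the MDA-MB-231 line and 0 in the T-47D line, of 27 that met the minimum after it. The set of genes at the minimum thus changed, and IRF7 and XAF1, below 100 on all arrays before it, were among the 21. With this scaling 70.5% and 5.83% of all genes stood on those sides, with a median log2 ratio of all genes of 1.68.

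**Figure D2:**
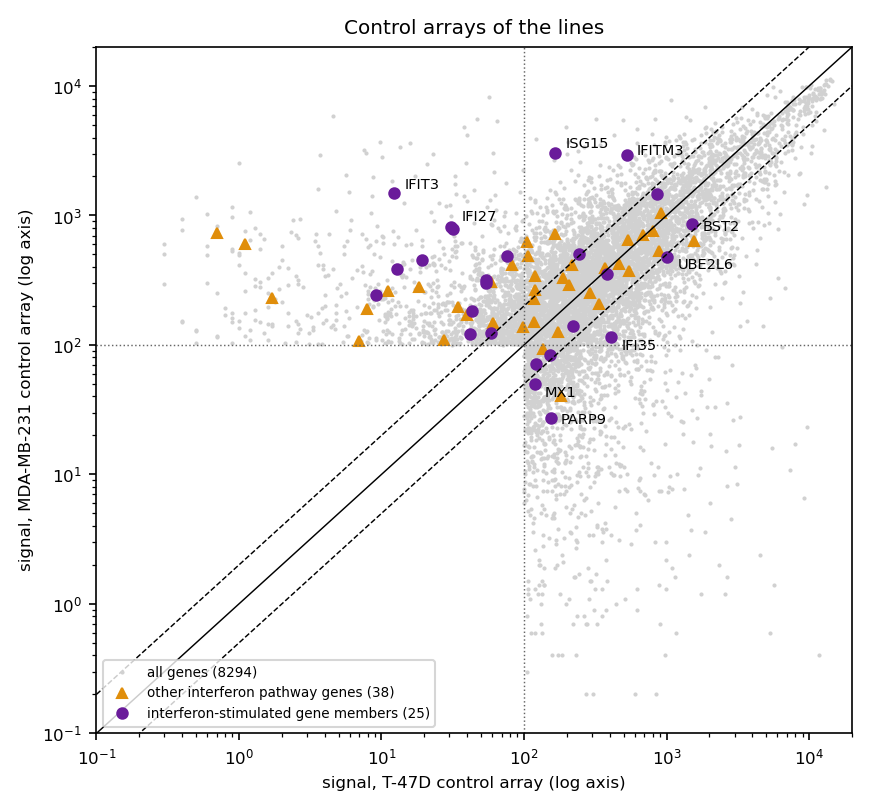
Signal of each gene on the control array of the T-47D line (x axis, log) and of the MDA-MB-231 line (y axis, log), for genes at 100 on at least 1 of these arrays, 1 array per line. Purple circles are the 25 interferon-stimulated genes, orange triangles 38 other genes of the pathway and grey points all genes; dashed lines mark 2-fold, dotted lines a signal of 100, and many purple circles lie at upper left, below 100 in the T-47D line.

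The IFIT genes, neighbours on chromosome 10 whose proteins bind viral RNA, were all higher in the MDA-MB-231 line. IFIT3 had a signal of 1493 in the MDA-MB-231 control and 1385 with JPH203, and of 12.3 and 32.0 in the T-47D line. IFIT1, which recognises RNA caps that lack methylation, had 788 and 621 in the MDA-MB-231 line, and 32.0 and 76.6 in the T-47D line. IFIT2 had 384 and 432 against 12.9 and 13.5, and IFIT5 had 316 and 286 against 54.3 and 52.3. No T-47D value of these 4 genes reached 100, so they met the minimum only through the MDA-MB-231 line. The second probe sets of IFIT2, IFIT3 and IFIT5 stood the same way, with control signals of 174 against 25.0 for IFIT2, 401 against 21.5 for IFIT3 and 107 against 4.1 for IFIT5.

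ISG15 is a ubiquitin-like protein that is attached to other proteins, and its signal was read on all 4 arrays. It was 3060.5 in the MDA-MB-231 control and 2960 with JPH203, and 164 and 172 in the T-47D line, a ratio of the control arrays of 18.6, the largest among the genes at 100 on both. The enzymes that handle ISG15 did not all stand the same way. HERC5, the ligase that attaches it, had 452 and 473 in the MDA-MB-231 line and 19.2 and 21.5 in the T-47D line. HERC6, its neighbour on chromosome 4, had 183 and 156 against 43.0 and 42.3, a call that was lost with the mean of its probe sets. UBE2L6, the conjugating enzyme that passes ISG15 to the ligase, was higher in the T-47D line, with 1008 and 1228 against 480.5 and 521 in the MDA-MB-231 line, a T-47D over MDA-MB-231 control ratio of 2.10 that turned to the other side with spike-in scaling. USP18, which removes ISG15, was below 100 on all 4 arrays, its highest signal being 70.8.

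The membrane proteins that block virus entry or release were read in both lines. IFITM3, which hinders fusion of virus and endosome, had 2905 and 2921 in the MDA-MB-231 line and 525 and 436 in the T-47D line, a control ratio of 5.53. IFITM2 had 1462 and 1483 against 856.5 and 728, a control ratio of 1.71, below the threshold. IFITM1 had 356 and 498 in the MDA-MB-231 line and 384 and 335 in the T-47D line, so that the lines overlapped. With spike-in scaling IFITM1 and IFITM2 were called higher in the MDA-MB-231 control, at log2 ratios of 1.43 and 2.31. Of all genes 70.5% were on that side under this scaling. The 3 IFITM genes are neighbours on chromosome 11 with similar sequences. Their probe sets are of the _x_at or _s_at kind, which can take up related transcripts, so signals may be shared among them. BST2, tetherin, which holds budding virus at the cell surface, had 853 and 750 in the MDA-MB-231 line and 1520.3 and 1280.5 in the T-47D line, a T-47D over MDA-MB-231 control ratio of 1.78 that did not reach the threshold and turned to the other side with spike-in scaling.

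Among the oligoadenylate synthetase family, which make the activator of RNase L, OASL alone was well above the minimum. OASL, a member without that enzyme activity, had 301 and 324 in the MDA-MB-231 line and 53.9 and 56.5 in the T-47D line, and its other probe set had 280 and 273 against 54.4 and 46.9. OAS2 reached 100 on 1 array, with 97.2 and 100.5 in the MDA-MB-231 line and 41.8 and 47.8 in the T-47D line, which puts it just inside the rule for a measured gene. OAS3 was just outside it, with a highest signal of 96.3 in the T-47D control, and OAS1 had at most 25.0. MX1, a GTPase that traps viral nucleocapsids, had 49.5 and 51.5 in the MDA-MB-231 line and 119 and 95.1 in the T-47D line. MX1 was thus called higher in the T-47D control on a signal close to the minimum, and this was lost after loess and turned to the other side with spike-in scaling. MX2, its neighbour on chromosome 21, had at most 62.2.

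SAMHD1, which hydrolyses deoxynucleotides, had 501 and 473 in the MDA-MB-231 line and 242 and 157.5 in the T-47D line. Its control ratio was 2.07, and the 4 SAMHD1 probe sets at the minimum had ratios between 2.07 and 3.77. The call on the brightest probe set was lost after median centring, quantile normalization and loess. ISG20, an exonuclease, had 93.5 and 93.2 in the MDA-MB-231 line and 72.2 and 126 in the T-47D line, below the minimum on 3 of the 4 arrays.

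Of the transcription factors, IRF1, which several cytokines induce, was higher in the MDA-MB-231 line, with 121 and 119 against 42.1 and 59.2. IRF9, the DNA-binding part of the complex with the STAT proteins, had 71.8 and 85.6 in the MDA-MB-231 line and 121 and 73.0 in the T-47D line, so that the lines overlapped, and its control ratio turned to the other side with spike-in scaling. IRF7, which amplifies interferon production, lay between 65.5 and 70.0 on all 4 arrays. IFIH1, the sensor MDA5 for long double-stranded RNA, had 125 and 119 in the MDA-MB-231 line and 58.3 and 50.3 in the T-47D line. The calls of IRF1 and IFIH1 rest on signals near the minimum and were lost at a minimum of 200 and with the mean of their probe sets.

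The remaining genes went both ways. IFI27, a mitochondrial membrane protein, had 817 and 965 in the MDA-MB-231 line and 30.6 and 52.4 in the T-47D line. IFI44 had 244 and 228 against 9.2 and 15.0, but its other probe set had 5.6 to 11.4 on the 4 arrays. IFI44L, the neighbour of IFI44 on chromosome 1, had at most 10. LGALS3BP, a secreted glycoprotein that binds galectins, had 488 and 482 in the MDA-MB-231 line and 76.5 and 40.3 in the T-47D line. IFI27, IFI44 and LGALS3BP met the minimum only through the MDA-MB-231 line.

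Of the rest, IFI35, PARP9, IFI6 and SP110 were brighter in the T-47D control. IFI35 had 115 and 116 in the MDA-MB-231 line and 408 and 419 in the T-47D line, a T-47D over MDA-MB-231 control ratio of 3.55, and none of the other 8 members at 100 on both arrays stood further to that side. PARP9, an ADP-ribosyltransferase family member, had 27.5 and 39.7 against 153 and 138. With spike-in scaling neither gene kept its call. That of PARP9 was also lost at a minimum of 200, with the mean of its probe sets and without its _s_at probe set, and its other probe set was below 100 on all 4 arrays. IFI6, which counters apoptosis, had 140 and 167 against 221.5 and 216. SP110, a nuclear body protein, had 84.0 and 106 against 152 and 157. Neither was called on its brightest probe set, and both turned to the other side with spike-in scaling. Another SP110 probe set had 60.1 and 89.0 against 121 and 73.6, and on it the T-47D control was called higher, though the lines overlapped. PARP14, next to PARP9 on chromosome 3, had at most 39.3. The ubiquitin ligases TRIM21 and TRIM22 had at most 61.0 and 67.8, and XAF1, an apoptosis regulator, at most 65.0.

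**Figure D3:**
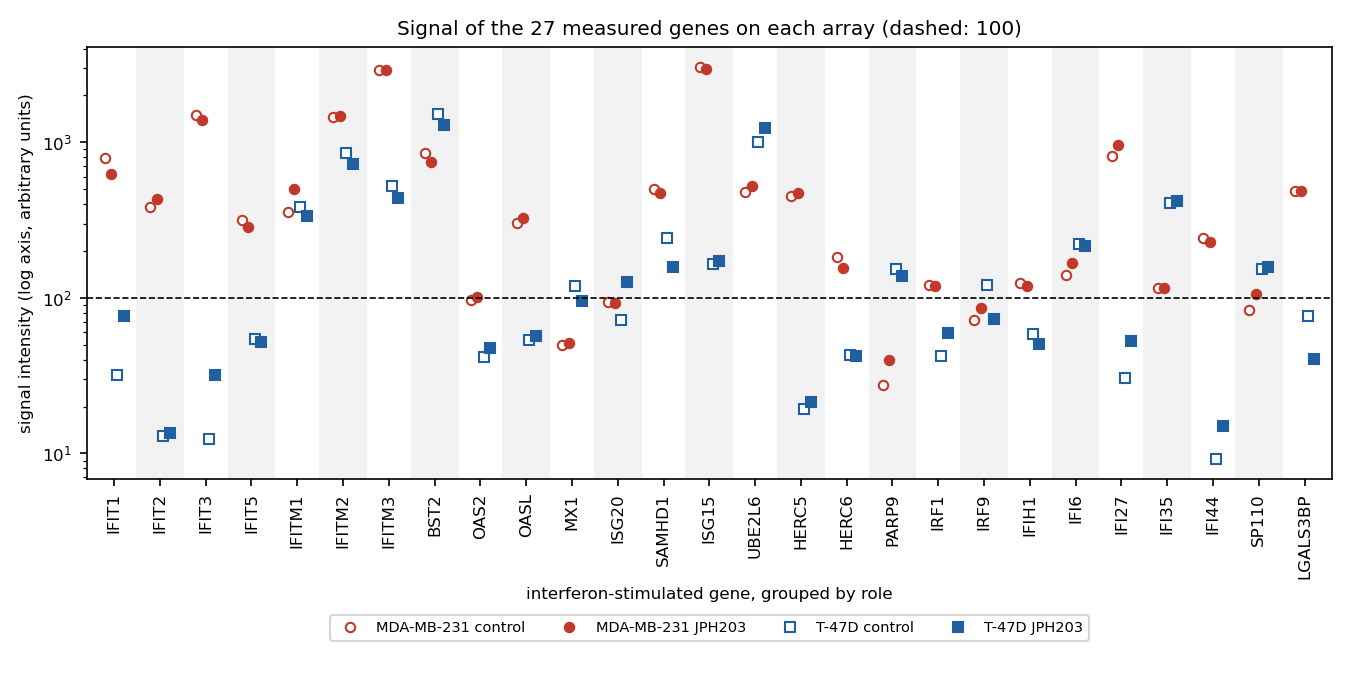
Signal (y axis, log, arbitrary units) of the 27 measured genes (x axis, grouped by role) on each of the 4 arrays, each point being 1 array. Red circles are MDA-MB-231 and blue squares the T-47D line, open for control and filled for JPH203, and the dashed line is a signal of 100; in most genes the open and filled symbols of a line lie close together while the colours stand apart.

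The lines were also compared on the JPH203 arrays. With a signal of 100 on at least 1 of these arrays, 17 of 25 genes were on the MDA-MB-231 side by 2-fold or more, where 27.9% of all 8239 genes were, and 3 in the T-47D line, where 25.6% of all genes were. All 15 genes called higher in the MDA-MB-231 control array were among the 17, joined by IFITM2 and OAS2. Of the 4 called higher in the T-47D control array, UBE2L6, PARP9 and IFI35 were called again, while MX1 was below 100 on both JPH203 arrays. Both comparisons are of the same lines, and the share of all genes called again is not given here. This overlap is therefore not read as a trait of these genes. Of the 10 genes at 100 on both of these arrays, IFITM2, IFITM3, SAMHD1 and ISG15 stood 2-fold or more on the MDA-MB-231 side (18.4% of all 5480 genes) and UBE2L6 and IFI35 on the T-47D side (19.9% of all genes).

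The second question was whether JPH203 changed these genes within a line, a gene being called where its signals stood 2-fold or more apart and neither was below 100. In the MDA-MB-231 line 0 of 21 genes were called in either direction, where 0.0885% of all 6777 genes were at least 2-fold higher and 0.0148% at least 2-fold lower. The ratios ran from 0.788 for IFIT1 to 1.40 for IFITM1, with 10 genes above and 11 below 1. The median log2 ratio was -0.018 for the 21 genes and -0.0071 for all genes tested. The central 95% of all genes had ratios between 0.778 and 1.32, and IFITM1 was the 1 gene of the 21 outside this range. Its signal was 356 in the control and 498 with JPH203 on a single _s_at probe set. These ratios are of the brightest probe set, and a further SAMHD1 probe set went from 606 to 403, its ratio of 0.665 lying below the central 95% of all genes. With so few genes called on these arrays, a count of 0 is what the background share gives for a list of this size.

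In the T-47D line 0 of 11 genes were called in either direction, where 2.23% of all 6416 genes were at least 2-fold higher and 2.42% at least 2-fold lower. The ratios ran from 0.652 for SAMHD1 to 1.22 for UBE2L6, with 4 genes above and 7 below 1, and the median log2 ratio was -0.15 against -0.022 for all genes tested. After loess these medians were 0.030 and 0.022, and with spike-in scaling -0.71 for the 6 genes still at the minimum and -0.41 for all genes. All 11 lay within the central 95% of all genes, 0.503 to 1.97. The SAMHD1 probe set that was lower in the MDA-MB-231 line went from 186 to 107 here, its ratio being 0.576, and another had 181 and 95.7. IFITM1, IFITM2, IFITM3 and BST2 had ratios of 0.872, 0.850, 0.830 and 0.842. ISG15, at 1.05, and IFI35, at 1.03, lay close to 1. With spike-in scaling the log2 ratio of SAMHD1 went from -0.62 to -1.12, with a scaled JPH203 signal of 69.4, below the minimum, and the ratios of ISG15, IFI35 and UBE2L6 turned below 1. The ACTB ratio also differed between these arrays, as given above, and its part in the results was not tested.

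Some genes had T-47D signals too low for a ratio to be read. With JPH203 the signal of IFIT1 was 76.6 and the control 32.0, and that of IFIT3 was 32.0 and the control 12.3, while IFIT2 and IFIT5 differed by less than 3 units on their brightest probe sets. The second IFIT3 probe set had 21.5 in the control and 23.5 with JPH203. ISG20 went from 72.2 to 126 on its brightest probe set and from 47.6 to 135 on the other, with both control values below the minimum. LGALS3BP had 76.5 in the control and 40.3 with JPH203, and IRF9 had 121 and 73.0.

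**Figure D4:**
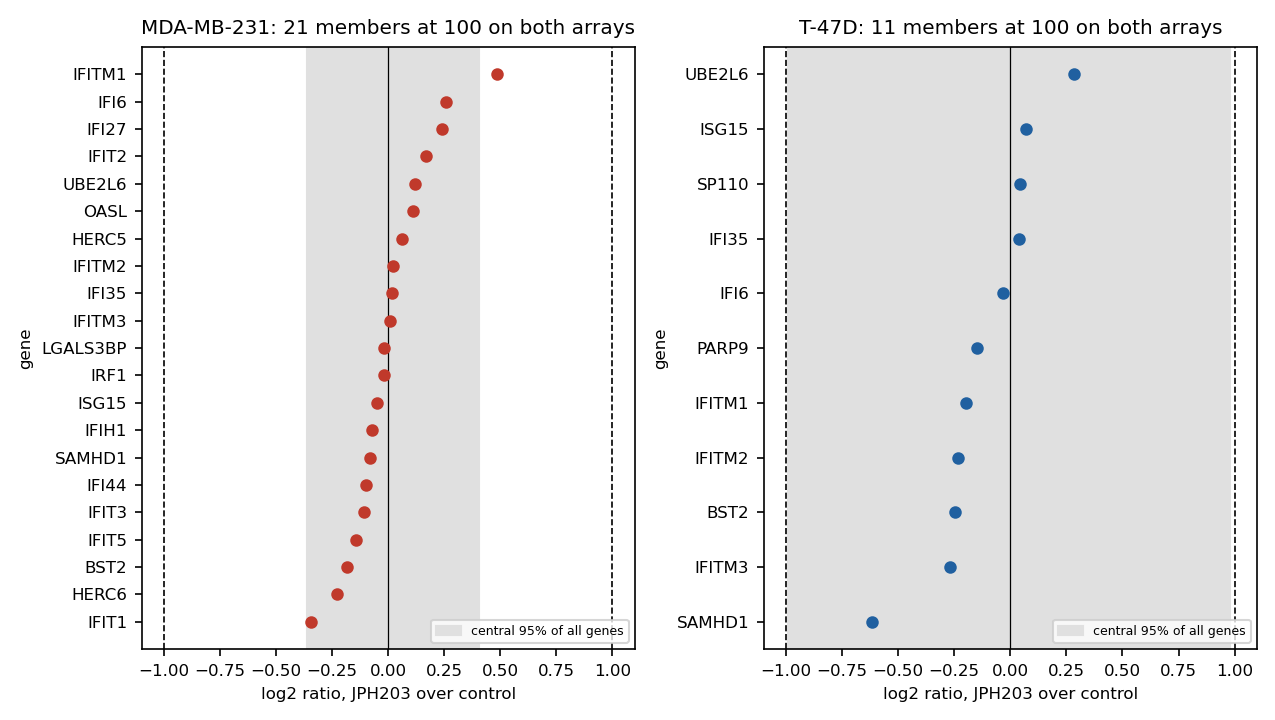
JPH203 over control as a log2 ratio (x axis) for the genes at 100 on both arrays (y axis) in the MDA-MB-231 line (left, 21 genes) and the T-47D line (right, 11 genes), 1 array per condition. Grey bands span the central 95% of all genes and dashed lines mark 2-fold; no point passes a dashed line, and IFITM1 in the MDA-MB-231 line is the point outside a band.

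The difference between the lines in their JPH203 log2 ratio, T-47D minus MDA-MB-231, could be formed for the 9 genes at 100 on all 4 arrays. It ran from -0.68 for IFITM1 to 0.17 for UBE2L6, with a median of -0.26, and SAMHD1 followed IFITM1 at -0.53. On the other SAMHD1 probe set at 100 on all 4 arrays the difference was -0.21, the log2 ratios being -0.59 in the MDA-MB-231 line and -0.80 in the T-47D line. With 1 array per condition these differences could not be tested.

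The other genes of the interferon pathway were read from a list of 90, of which 84 had a probe set of their own and 39 reached 100 on at least 1 array. None of the 12 interferon genes with a probe set came above a signal of 22.4. In the control arrays 18 of 38 pathway genes were higher in the MDA-MB-231 line and 2 in the T-47D line, beside the shares of 23.5% and 24.3% of all genes. Of the 22 pathway genes at 100 on both control arrays, 5 were higher in the MDA-MB-231 line (RIGI, PTPN2, TRIM14, PNPT1 and NMI) and 1, STAT3, in the T-47D line, beside 16.3% and 16.1% of all genes. With JPH203, 0 of 35 were called in the MDA-MB-231 line, beside 0.0885% of all genes higher and 0.0148% lower. In the T-47D line 0 of 20 were called, beside 2.23% of all genes higher and 2.42% lower. These shares leave few calls to be found in lists of this size.

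Of 7 receptor, kinase and STAT genes measured, 1 was called higher in the MDA-MB-231 control and 1 in the T-47D control. IFNAR2, part of the type I receptor, had 109 and 115 in the MDA-MB-231 line and 27.3 and 24.8 in the T-47D line, while IFNAR1, its partner, was below 100 throughout. The type II receptor gene IFNGR1 had 293 and 335 against 208 and 185, and IFNGR2 had 711 and 949 against 686 and 779. IL10RB, shared with the type III receptor, had 419 and 364 against 465 and 472. JAK1 had 1050 and 954 in the MDA-MB-231 line and 911.5 and 543 in the T-47D line, and TYK2 had 138 and 102 against 97.8 and 87.6. STAT3, which carries mainly interleukin signals, was higher in the T-47D line, with 1546 and 1039 against 640.0 and 626.5, and turned to the other side with spike-in scaling.

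Of the genes for sensing, the DNA sensors IFI16 and CGAS and the RNA sensor RIGI were called higher in the MDA-MB-231 control. IFI16 had 603.5 and 636 in the MDA-MB-231 line and 1.1 and 0.8 in the T-47D line, CGAS had 232 and 198.5 against 1.7 and 2.0, and RIGI had 268 and 244 against 119.5 and 73.0. STING1, the adaptor downstream of CGAS, had at most 35.5. Of the repressors, SOCS3 had 195 and 217 in the MDA-MB-231 line against 34.4 and 18.1, and PTPN2, a phosphatase of the JAK and STAT proteins, 343 and 292 against 119 and 189. Of 22 further interferon-stimulated genes, 12 were higher in the MDA-MB-231 line and 1 in the T-47D line, where 23.5% and 24.3% of all genes were. Of the 11 at 100 on both control arrays these counts were 3 and 0, beside 16.3% and 16.1% of all genes under that rule. GBP3, a guanylate-binding protein, had 734.5 and 712 against 0.7 and 5.8, GBP1 had 279 and 366 against 18.2 and 8.7, DDX60, a helicase, had 260.1 and 326 against 11.2 and 25.9, and DDX60L 190 and 253.5 against 7.9 and 2.1. LY6E, a membrane protein, was the gene higher in the T-47D line, with 181 and 184 against 40.4 and 67.0, and was not called with spike-in scaling.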

How the data were processed

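The authors deposited linear signal intensity values for 54675 probe sets of 4 U133 Plus 2.0 arrays. The submitters' processing notes name GCOS, whose version and settings are not given in the sources used here. In the platform annotation 41097 probe sets name 1 gene and 1801 several, the latter left unused, and 11777 are not listed. Of the 41097, 41043 were matched to RefSeq of GRCh38.p14 by gene identifier, with 0 symbols changed. No detection calls were used, and the number of arrays limits the precision. Signals of 100 or more counted as measured. Ratios were called at 2 or 0.5, without a test. The alternatives were other scalings (median, quantile, loess with a span of 0.4, poly-A spike-ins), a pseudocount of 16, other minimums and thresholds, and other choices of probe set. The members and lists were chosen with earlier results of these data known. All listed members were named, and of other pathway genes the measured receptor, JAK and STAT genes and up to 4 called genes per list with the largest change; IFNAR1, STING1, LY6E, TRIM14, PNPT1 and NMI were added after their values were seen. Motifs were found by exact match. The calling step was tested on simulated data. Python 3.11.15, numpy 2.4.6, pandas 2.3.3, statsmodels 0.14.6 and matplotlib 3.10.9 were used.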

Additional observations from a re-analysis of the deposited data

How the results depend on the processing

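With JPH203, 0 members were called in the MDA-MB-231 line under every alternative tried. In the T-47D line the count stayed at 0 except without a minimum signal and at a 1.5-fold threshold. Without a minimum signal 4 of 37 were higher (IFIT1, IFIT3, MX2 and TRIM22), where 15.96% of all 19775 genes were. In that setting 1 was lower (OAS3), where 12.43% of all genes were. All these members had signals below 100 on both T-47D arrays. At the 1.5-fold threshold 1 of 11 was lower (SAMHD1), where 13.64% of all 6416 genes were. Between the control arrays, the 15 members higher in the MDA-MB-231 line became 3 when both arrays had to reach 100, by construction of the minimum. Their count was 12 at a minimum of 200 (24.0% of all genes) and at a 3-fold threshold (14.1%). It also fell with the mean of all probe sets and without _x_at and _s_at probe sets. It rose to 16 at a 1.5-fold threshold (33.6%), to 17 at a minimum of 50 (22.8%) and to 21 with spike-in scaling (70.5%). Without a minimum signal it was 19 (22.0%). The 4 members higher in the T-47D line became 0 with spike-in scaling, where 5.83% of all genes stood on that side. They became 8 at a 1.5-fold threshold (33.8% of all genes) and 2 at a 3-fold threshold (14.8%). The count was also 2 at a minimum of 200 (23.8%), without _x_at and _s_at probe sets (24.7%), or with 100 on both arrays (16.1%). With spike-in scaling the log2 ratios of MX1 and UBE2L6 turned to 0.28 and 0.47. That of IFI44 was -0.19 without _s_at probe sets, read from a probe set below 100 on all arrays. The median log2 ratio of the members between the control arrays ran from -0.11, with 100 on both arrays, to 3.06, with spike-in scaling. Over all alternatives, members' log2 ratios with a call kept it 222 times of 262 and lost it 40 times, 3 of these by turning in sign. Ratios with no call gained one 8 times of 485 and turned in sign 35 times, 17 of these with spike-in scaling. No paired analysis was possible because each group has 1 array and the labels number no replicates. With 1 array per group, no leave-one-out value exists.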

Other observations

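LAMP3, a lysosome-associated membrane protein listed here among the further interferon-stimulated genes, was chosen after its values were seen. It had a signal of 38.6 in the T-47D control and 313 with JPH203, and 10.7 and 12.6 in the MDA-MB-231 line, so that its T-47D control lay below the minimum and the ratio is not read as a size. PNPT1, an exoribonuclease of mitochondria also chosen after its values were seen, had 164 in the T-47D control and 314 with JPH203, a ratio of 1.92, just short of the threshold, and 721 and 626 in the MDA-MB-231 line.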
